A study of Mus musculus with 3 samples.

Results

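The 41 genes described here encode the machinery of glucose use and its best known transcriptional control: 3 glucose carriers, 17 glycolytic enzymes, 4 bifunctional enzymes of fructose 2,6-bisphosphate, 3 monocarboxylate carriers, 2 pyruvate dehydrogenase kinases, HIF-1 alpha with its 3 prolyl hydroxylases, and 8 hypoxia-responsive genes. They were picked out by gene name, and all 41 were found among the 27720 gene names of the array. Kdm3a carries its older name Jmjd1a there, and Pkm the name Pkm2. Their expression was measured in J774A.1, an established macrophage-like cell line of the mouse, which had spent 6 h in one of 3 media. The first was Earle's Balanced Salt Solution (EBSS), a buffered salt solution that holds glucose and no amino acids. The second was EBSS with 10 µM SB202190, a compound that inhibits p38 MAP kinases. The third, the control, was RPMI medium with 10% fetal bovine serum (RPMI). Labels name no serum for either EBSS medium, and they do not say whether cells in EBSS alone received the solvent of the inhibitor. EBSS therefore differed from RPMI in amino acids, serum and other ingredients at once, and these cannot be told apart. Whether the media also differed in their amount of glucose was not examined here, so an equal glucose supply cannot be assumed. All cells were of 1 line, and the labels name no genetic change.

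Glucose enters a cell through facilitative carriers and is trapped by hexokinases, split and oxidised by the glycolytic enzymes, and leaves as lactate through monocarboxylate carriers when it is not burned in mitochondria. Activated macrophages are known for a high glycolytic rate. When oxygen is scarce, prolyl hydroxylases stop marking HIF-1 alpha for destruction, and the HIF-1 dimer then binds short response elements in the promoters of many carriers, glycolytic enzymes and stress genes and raises their transcription. This control acts mostly on the HIF-1 alpha protein, which an RNA array does not measure.

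The RNAs were hybridised in pairs, in 2 colours, in a loop of 3 arrays, so each condition was read in Cy5 on one array and in Cy3 on another. Each condition was 1 sample, so no test between conditions was possible and the differences have no replicate check. The error given below is a technical standard error, taken among probes of like intensity from the ratios summed round the loop, a sum that is 0 without error or dye difference. A gene's own difference between the dyes enters that sum but cancels in the ratio, so the error also holds spread that the ratio does not. This standard error had a median of 0.12 over the members, and the spread between cultures is not in it. To be counted as higher or lower, a gene needed a log2 ratio of 1 or more in size, and a ratio of the same sign and 0.5 or more in size both on the array shared by the 2 conditions and through the remaining 2 arrays. Levels are normalized log2 intensities, comparable between conditions for 1 probe but not between genes. A probe can read differently in Cy5 and Cy3, so its levels compare best within a dye. Overlap of channels is described over both dyes unless a dye is named. All 12 macrophage markers on the array were well above background in all 6 channels. None of the T cell, B cell, fibroblast, epithelial and endothelial markers was so in all 6. Of the T cell markers 2 of 4, of the B cell markers 1 of 3 and of the fibroblast markers 1 of 3 were so in no channel. The other markers of these types were so in only some of the 6. All 4 epithelial and all 3 endothelial markers on the array were so in no channel. S100a8, a neutrophil marker, and Hba-a1, an erythroid one, were also well above background in all 6 channels. S100a9, the other neutrophil marker on the array, was so in no channel, and Hbb-b1, the other erythroid one, was so in only some of the 6. In RNA of a whole culture, less RNA per cell and fewer cells that express a gene cannot be told apart.

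Of the 41 genes 39 were measured, and 38 were well above background in all 6 channels. Eno2, the remaining measured gene, was so in only 1 of the 2 RPMI channels. The other two, Adm, which encodes the vasodilator peptide adrenomedullin, and Egln3, a prolyl hydroxylase, were not. Adm lay at 8.57 to 8.67 over the channels and was well above background in 1 RPMI channel only. Egln3 lay at 8.49 to 8.56 and was so in none, while spots that match no transcript lay at 8.53 to 8.57. In EBSS against RPMI, 2 of 39 members were counted as higher and 3 as lower, where 4.49% of all measured genes were higher and 2.83% lower. With SB202190 in EBSS none was higher and 1 was lower, against 0.896% and 2.93% of all genes. In EBSS with SB202190 against RPMI 1 was higher and 1 lower, against 1.46% and 2.42%. Except for the members lower in EBSS, which rest on 3 genes, these counts are close to what the share among all genes gives for 39 genes. The counts are therefore no result about the pathway as a whole. The split of all counted genes depended on scaling. It was 61.3% higher in EBSS against RPMI after loess, 47.0% with the scanner software's ratios, 48.8% with a background taken from negative control spots, 71.1% when arrays were only centred on well measured probes and 99.5% when they were only centred on all probes. For the inhibitor in EBSS the share was 23.4% after loess, 50.2% with the scanner software, 39.9% with the negative control background and 2.40% when centred on all probes. In EBSS with SB202190 against RPMI it was 37.5% after loess and 62.7% when centred on all probes. In all, 7 members were counted in at least 1 comparison, namely Hk2, Jmjd1a, Hk1, Pfkfb4, Slc16a6, Hk3 and Pfkfb3.

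**Figure D1:**
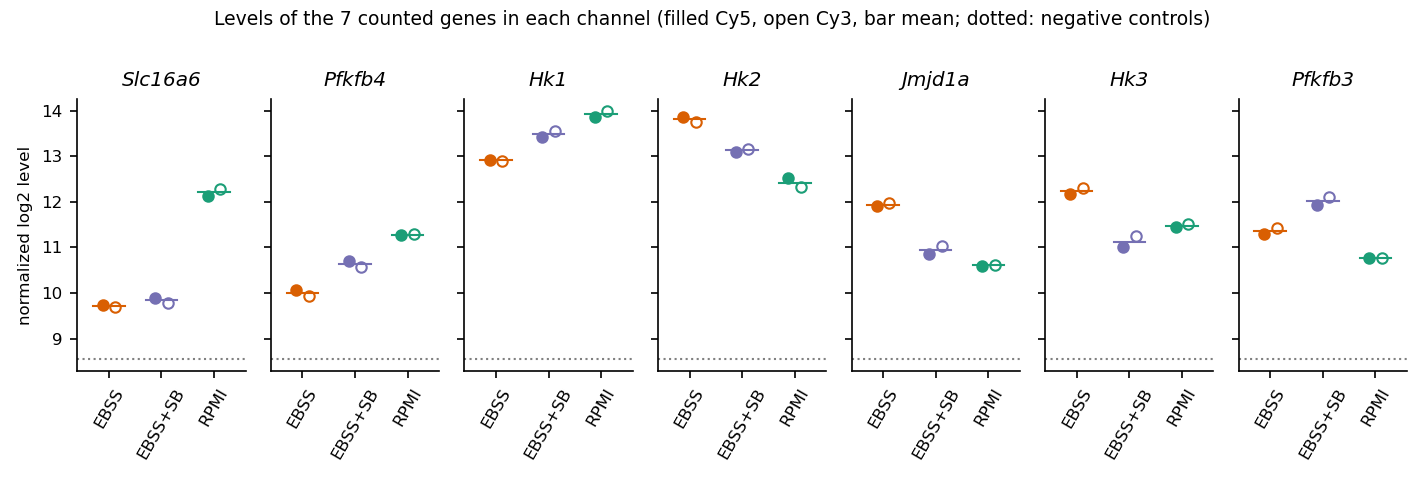
Normalized log2 intensity (vertical axis) of the 7 counted genes in EBSS, EBSS with SB202190 (EBSS+SB) and RPMI. Filled circles are Cy5 channels, open circles Cy3 channels, bars their mean, and the dotted line is the level of the negative control spots; Slc16a6 lies at 9.70 to 9.90 in both EBSS media and at 12.12 and 12.28 in RPMI.

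The promoter windows of the 5 of these 7 genes that hold a core hypoxia response element are shown. Those of Ldha, Pgk1 and Bnip3, classical HIF-1 targets picked because they hold it as well, are shown beside them. This element is what HIF-1 is known to bind, and both glycolytic and hypoxia genes can carry it. The core was searched as ACGTG or GCGTG on both strands of the 250 bases before the transcription start, in RefSeq promoters of build GRCm38.p6, taking the first start listed for a gene. It was found in 38.6% of 27025 promoters of mouse genes. Of the 38 members with a promoter in that table it was found in 30 (78.9%), that is in 11 of 17 glycolytic enzymes (64.7%) and in 10 of 11 hypoxia regulators and responsive genes (90.9%). The members outside these 38 are Slc2a3, Slc16a6 and Bnip3l, and these letters are not in the window of the first listed start of Hk1. The second listed start of Hk1 holds GCGTG 3 times, while starts 2 and 3 of Jmjd1a hold no core. Which genes hold it thus depends on the start taken. Each window runs 5′ to 3′ along the strand of the gene with the core in capitals; where it reads CACGT or CACGC the core lies on the opposite strand, and CACGTG holds it on both. A match describes these letters and does not show that a factor binds there. Several members were listed as known HIF-1 targets, and the promoters of all genes were not matched to them in base composition. The higher share among members is therefore no independent result.
Hk2, chr6:82774490-82774692, minus strand: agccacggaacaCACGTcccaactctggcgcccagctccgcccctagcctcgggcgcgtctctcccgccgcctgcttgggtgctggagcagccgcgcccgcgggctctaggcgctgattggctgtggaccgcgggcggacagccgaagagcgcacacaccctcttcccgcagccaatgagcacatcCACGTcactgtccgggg
Jmjd1a, chr6:71632928-71632956, minus strand: ccgggaggctgtGCGTGtcttgtgagaga
Hk3, chr13:55021525-55021553, minus strand: actacattttgaCACGTtgcctagttcaa
Pfkfb3, chr2:11553973-11554001, minus strand: ctccgcgccgtgACGTGccaagctgtgac
Pfkfb4, chr9:108991773-108991801, plus strand: ttgacggatgggGCGTGcttagtccaaaa
Ldha, chr7:46845647-46845786, plus strand: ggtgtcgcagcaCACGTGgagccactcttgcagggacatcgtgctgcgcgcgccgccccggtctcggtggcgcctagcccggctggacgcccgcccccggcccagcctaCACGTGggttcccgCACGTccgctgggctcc
Pgk1, chrX:106186938-106186985, plus strand: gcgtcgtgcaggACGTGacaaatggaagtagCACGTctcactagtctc
Bnip3, chr7:138909525-138909635, minus strand: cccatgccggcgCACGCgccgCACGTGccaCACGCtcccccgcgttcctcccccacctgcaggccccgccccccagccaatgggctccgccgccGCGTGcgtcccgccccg
Hk2, which rose in EBSS, holds the core as ACGTG, and Pfkfb4, which fell, holds it as GCGTG. Ldha and Pgk1, which were not counted, hold ACGTG. A link between the core and the direction of a gene was not tested.

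Of the glucose carriers, Slc2a1 (GLUT1), the basal carrier of most cells, lay lower in EBSS with SB202190 than in RPMI by a log2 ratio of -0.82 ± 0.14. Its levels were 13.41 and 13.07 in EBSS, 12.91 and 12.78 in EBSS with SB202190, and 13.71 and 13.50 in RPMI. The channels of EBSS with SB202190 lay below both RPMI channels, and the EBSS channels between, but the shared array gave -0.59 and the other 2 arrays -1.27. Slc2a6 (GLUT6), a carrier known from lysosomes of myeloid cells, went the other way, at 13.64 and 13.83 in EBSS with SB202190, 13.02 and 13.04 in EBSS, and 12.73 and 12.90 in RPMI. Its log2 ratio was 0.69 ± 0.14 with the inhibitor in EBSS and 0.87 ± 0.14 against RPMI, and the channels with the inhibitor overlapped with none of the others. Slc2a3 (GLUT3), a high-affinity carrier, lay at -0.48 ± 0.12 in EBSS with SB202190 against RPMI and at -0.23 ± 0.12 in EBSS. None of the 3 carriers was counted in any comparison.

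The 3 hexokinases, which phosphorylate glucose, each took another course. Hk2, the inducible form, stood at 13.86 and 13.76 in EBSS, at 13.09 and 13.16 in EBSS with SB202190, and at 12.52 and 12.31 in RPMI. All 3 conditions were separate, and Hk2 rose in EBSS by a log2 ratio of 1.32 ± 0.13, or 2.49-fold. Under the inhibitor it was at -0.62 ± 0.13 relative to EBSS, short of the size required, and still 0.70 above RPMI. The Hk2 probe lies at chr6:82690720-82690779 (mm8, the build of the array files), and it was the only probe for this gene.

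Hk1, the form found in most tissues, was the mirror of Hk2. It stood at 12.92 and 12.90 in EBSS, 13.42 and 13.54 in EBSS with SB202190, and 13.86 and 13.98 in RPMI. It fell by 1.04 ± 0.14 on the log2 scale in EBSS, and the channels of the 3 conditions did not overlap. The ratio to EBSS under the inhibitor was 0.55 ± 0.14, and to RPMI -0.49. The probe, at chr10:61664525-61664584 (mm8), was the brightest of 6 for the gene. The next 3 gave -0.51, -0.46 and -0.35 in EBSS, or -0.97 to -1.04 with the scanner software's ratios. The remaining 2 were near the negative control level. Hk1 was not counted with the median of its probes (-0.39), on the shared array alone (-0.97), or when arrays were centred on well measured probes (-0.62). It was also the one counted member whose sign depended on scaling: when each array was centred on the median of all its probes without loess, it lay at 0.22 while the median of all genes lay at 0.81, a difference of -0.59.

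Hk3, a form typical of myeloid cells, was the single member counted with the inhibitor in EBSS. It stood at 11.00 and 11.25 in EBSS with SB202190 and at 12.16 and 12.31 in EBSS, against 11.44 and 11.51 in RPMI. It fell by 1.07 ± 0.12 with SB202190 relative to EBSS, with -0.91 on the array that held both media and -1.38 through the other 2 arrays, so that the shared array alone would not have counted it. Its highest level was that in EBSS alone. In EBSS against RPMI its ratio was 0.72 ± 0.12, which missed the size required. Pfkp, the platelet form of phosphofructokinase, had the same order of levels with smaller steps, at 11.20 and 11.28 in EBSS with SB202190, 11.83 and 11.93 in EBSS and 11.33 and 11.49 in RPMI. Its ratios were -0.67 ± 0.12 with the inhibitor and 0.49 ± 0.12 in EBSS, but the median of its probes gave -0.08 and 0.02. Pfkl, the liver form, went the other way (0.35 and -0.28), and Pfkm, the muscle form, lay at 0.08 and 0.03. None of the 3 phosphofructokinases, which commit the sugar to glycolysis, was counted.

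The 8 brightest enzymes, Gpi1, Aldoa, Tpi1, Gapdh, Pgk1, Pgam1, Pkm2 and Ldha, cover most steps from glucose 6-phosphate to lactate. In EBSS against RPMI their log2 ratios ran from -0.66 for Tpi1, triosephosphate isomerase, to 0.00 for Pkm2, the pyruvate kinase, with a median of -0.37. Under SB202190, relative to EBSS, they ran from 0.20 for Pgam1, phosphoglycerate mutase, to 0.69 for Tpi1, with a median of 0.39. In EBSS with SB202190 against RPMI they ran from -0.10 to 0.22. None was counted, and the technical error at this brightness was the largest among the members, 0.21 for each. Gapdh, glyceraldehyde 3-phosphate dehydrogenase, had levels of 16.21 and 15.97 in EBSS, 16.56 and 16.65 in EBSS with SB202190, and 16.60 and 16.26 in RPMI. Ldha, which makes lactate from pyruvate, had 15.50 and 15.28 in EBSS, 15.91 and 15.67 in EBSS with SB202190, and 16.16 and 15.71 in RPMI. For both genes the EBSS channels lay below all others, while those with the inhibitor overlapped with RPMI.

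The direction of these 8 enzymes rested on the normalization. The 526 genes of the same brightness also had a median of -0.15 in EBSS and 0.16 with the inhibitor. Bright probes in general thus had the same direction. Before normalization, the median log2 ratio of Cy5 over Cy3 was 1.69 over all probes and 1.22 over well measured ones on array 1. It was -0.88 and -0.02 on array 2, and -0.73 and -0.02 on array 3. Centring subtracts 1 value per array, so a dye difference that changes with brightness stays in the centred ratios. Relative to the median of all measured genes, 8 of 8 lay lower in EBSS after loess (Pkm2 only marginally), but 6 of 8 with the scanner software's ratios, 5 of 8 with a background taken from negative controls, and none of 8 when arrays were only centred. Under the inhibitor, relative to EBSS, 8 of 8 lay above that median after loess and with the negative control background, 7 of 8 with the scanner software, and 3 of 8 when arrays were only centred. Hence neither a fall in EBSS nor a rise with the inhibitor can be stated for the common glycolytic enzymes. Some single genes also had paths through the loop that went apart: in EBSS against RPMI the shared array gave -0.84 and the other arrays 0.52 for Aldoa, the main aldolase, and 0.15 and -1.06 for Eno1, the main enolase. Aldoa read higher in Cy5 than in Cy3 in every condition, and Eno1 higher in Cy3. A gene's difference between the dyes moves the paths apart but cancels in the loop estimate, and its share here was not tested. Aldoc, the brain aldolase, lay at 0.07 in EBSS. Binding of these probes to copies or pseudogenes of the same enzymes was not analysed here.

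Eno2, the enolase first known from neurons, was the dim exception among the enzymes. It stood at 9.55 and 9.61 in EBSS, 8.88 and 9.18 in EBSS with SB202190, and 8.92 and 8.75 in RPMI. The EBSS channels lay above all others, and the channels with the inhibitor overlapped with RPMI. After loess the ratio in EBSS was 0.63 ± 0.10, which was not counted. With the scanner software it was 2.35 and with a background from negative controls 1.73, and a second probe gave 0.56, 2.54 and 1.82 in the same order. When arrays were only centred on well measured probes the first probe gave 0.22. The inhibitor in EBSS gave -0.43, -1.59 and -1.32.

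**Figure D2:**
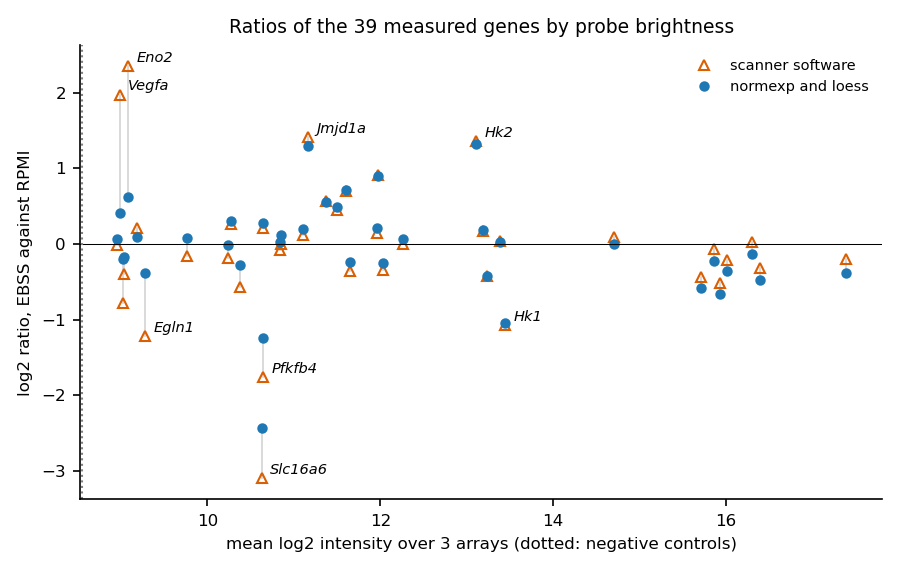
Log2 ratio of EBSS against RPMI (vertical axis) against the mean log2 intensity over the 3 arrays for the 39 measured genes. Filled circles are values after normexp and loess and open triangles the scanner software's values of the same probe, joined by grey lines; dim genes to the left, such as Eno2 (0.63 and 2.35) and Vegfa (0.41 and 1.97), differ most between them.

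The size of such ratios depended on the background. Spots that match no transcript kept a level of 8.53 to 8.57 after local background was subtracted. Such a constant part of the signal in both channels makes a ratio smaller. Members within about 1 log2 unit of that floor were Eno2, Vegfa, Egln1, Slc16a3, Pfkfb1, Pfkfb2 and Ankrd37. For these the value with the negative control background is given beside the first, and neither is a count of molecules. The plot of ratios by brightness shows that some members above this range also differed between the procedures: in EBSS against RPMI, Slc16a6 had -2.43 after loess and -3.10 with the scanner software, Pfkfb4 -1.25 and -1.76, and Pfkl -0.28 and -0.56.

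The 4 bifunctional enzymes set the level of fructose 2,6-bisphosphate, the main activator of phosphofructokinase, and 2 of them were counted, in opposite directions. Pfkfb3, the form with the highest kinase activity, stood at 11.93 and 12.10 in EBSS with SB202190, 11.29 and 11.42 in EBSS, and 10.76 and 10.77 in RPMI. The 3 conditions were separate, with the highest level under the inhibitor. It rose in EBSS with SB202190 against RPMI by 1.27 ± 0.12, or 2.41-fold, of which 0.56 was found in EBSS alone and 0.71 with the inhibitor in EBSS. A second, dim probe gave 0.27, or 1.22 with the negative control background. The median of its probes, also 0.27, would not have been counted. The brightest probe lies at chr2:11389805-11389864 (mm8).

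Pfkfb4, a form known to be induced by hypoxia, stood at 10.06 and 9.94 in EBSS, 10.71 and 10.57 in EBSS with SB202190, and 11.26 and 11.29 in RPMI. It fell by 1.25 ± 0.11 in EBSS, which is 2.37-fold lower, or -1.68 with the negative control background. Relative to EBSS, the ratio under the inhibitor was 0.59 ± 0.11, or 0.94 with that background. Its levels thus lay between those of EBSS and RPMI, and the conditions did not overlap. The probe, the only one for the gene, lies at chr9:108889519-108889578 (mm8). Pfkfb1, the liver form, and Pfkfb2, the heart form, were dim and were not counted, with ratios from -0.32 to 0.23 over the 3 comparisons after loess and from -0.85 to 0.59 with the negative control background.

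Among the monocarboxylate carriers the largest difference of all members was found. Slc16a6 (MCT7), a carrier known from zebrafish to export ketone bodies from the liver, stood at 9.74 and 9.70 in EBSS and at 9.90 and 9.79 in EBSS with SB202190, against 12.12 and 12.28 in RPMI. It fell by 2.43 ± 0.11 in EBSS, which is 5.38-fold lower than in RPMI. In EBSS with SB202190 it fell by 2.38 ± 0.11 relative to RPMI. Between the 2 EBSS media the ratio was 0.05 ± 0.11 after loess, 0.27 with the negative control background, 0.34 with the scanner software and 0.40 with arrays scaled to each other, and -0.31 when arrays were only centred on all probes, where the median of all genes was -0.45. Its size thus depended on the procedure, and so did the sign of the ratio itself. Relative to the median of all genes the ratio was 0.05 after loess and 0.14 when arrays were only centred, positive in both. With the negative control background the ratios to RPMI were -2.96 and -2.69. The probe lies at chr11:109268834-109268893 (mm8). A second probe was well above background in RPMI only and gave -0.25 and -0.27, or -1.12 and -1.10 with that background.

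The carriers that are known for lactate were not counted in any comparison. Slc16a1 (MCT1), which carries lactate in and out, was bright and stood at 13.26 and 13.41 in EBSS, 13.41 and 13.69 in EBSS with SB202190, and 13.17 and 13.38 in RPMI. The channels of EBSS and RPMI overlapped over both dyes, though EBSS lay slightly higher within each dye, and the ratio was 0.03 ± 0.14. Slc16a3 (MCT4), the exporter of highly glycolytic cells and a hypoxia target, was dim, at 8.94 and 8.91 in EBSS, 8.99 and 8.96 in EBSS with SB202190, and 9.11 and 9.15 in RPMI. Its ratio in EBSS was -0.20 ± 0.10, or -0.60 with the negative control background. The EBSS channels lay below both RPMI channels.

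The pyruvate dehydrogenase kinases, which keep pyruvate out of the mitochondrial oxidation path, were not counted. Pdk1, a HIF-1 target, stood at 10.25 and 9.86 in EBSS with SB202190 and 9.59 and 9.60 in EBSS, against 9.68 and 9.58 in RPMI. Both channels with the inhibitor lay above the others, and the ratio to EBSS was 0.42 ± 0.11, or 0.84 with the negative control background. A second probe gave 0.47 and 0.95. In EBSS against RPMI Pdk1 lay at 0.08 ± 0.11, and Pdk3, another kinase of the family, at -0.01 ± 0.10.

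**Figure D3:**
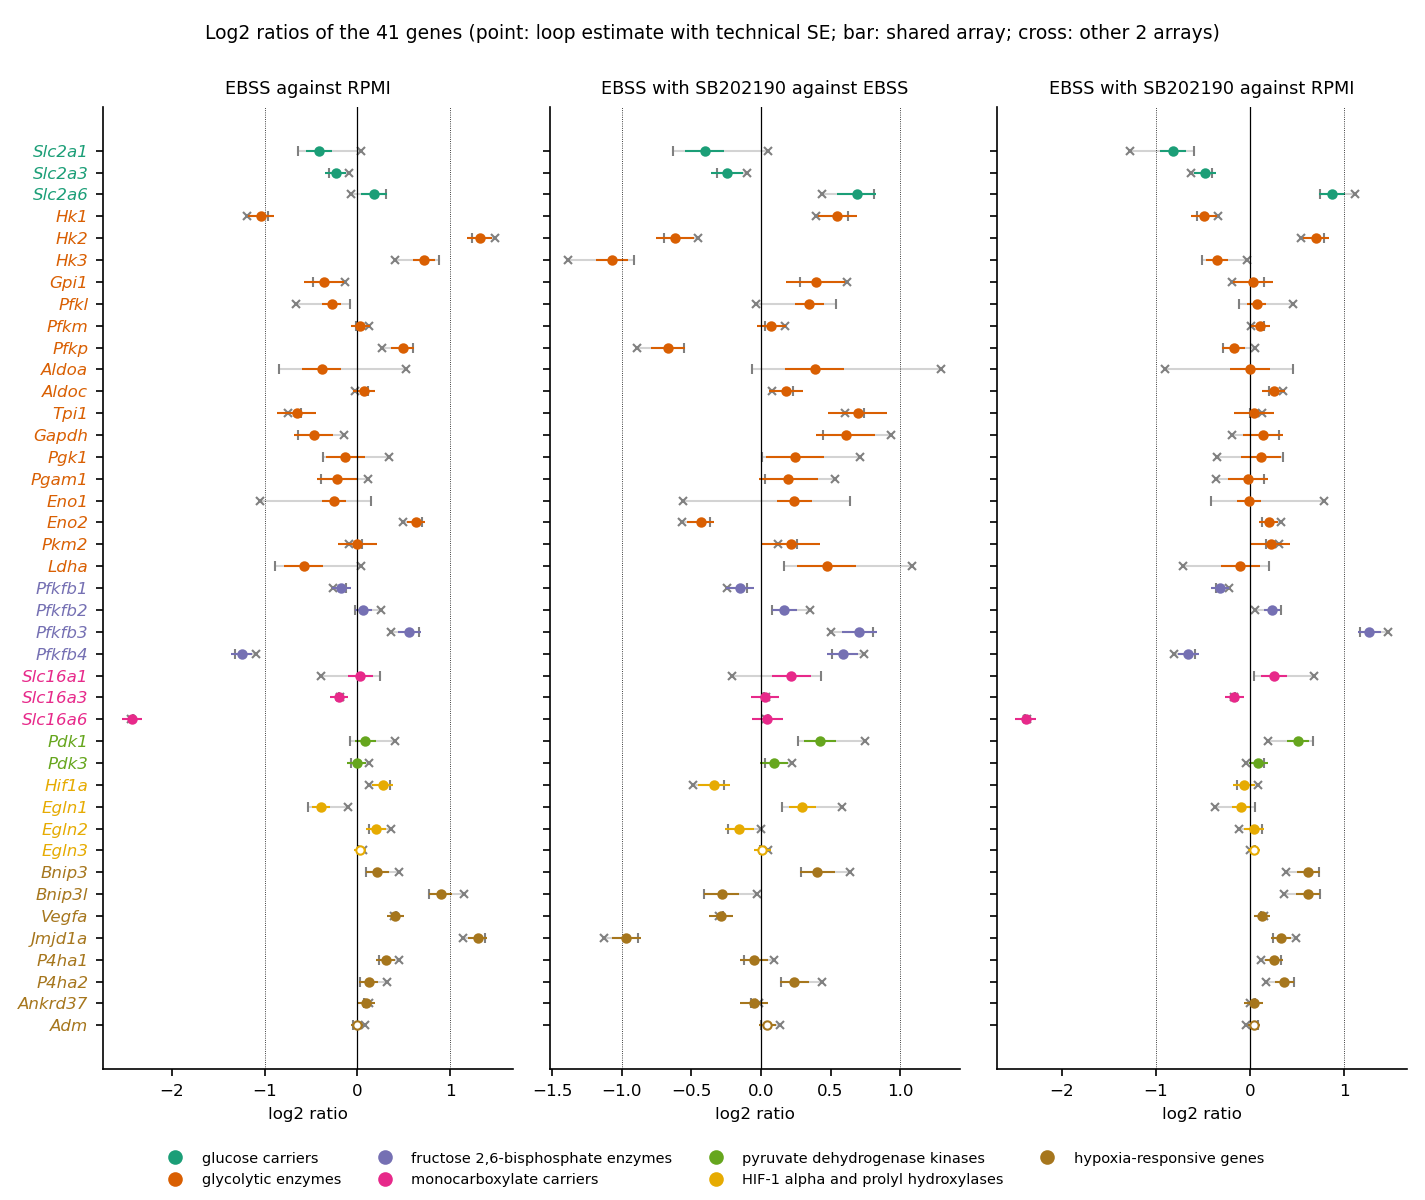
Log2 ratios (horizontal axis) of all 41 genes in the 3 comparisons, coloured by role. Points are loop estimates with their technical standard error, bars the array that held both conditions, crosses the path through the other 2 arrays, and open points the 2 genes that were not measured; Slc16a6 (-2.43 and -2.38) lies farthest from 0, and the wide spans of Aldoa and Eno1 show paths that went apart.

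Of the hypoxia regulators, Hif1a, which encodes the oxygen-regulated subunit of HIF-1, stood at 10.84 and 10.85 in EBSS, 10.49 and 10.58 in EBSS with SB202190, and 10.50 and 10.63 in RPMI. The EBSS channels lay above the others, and those with the inhibitor overlapped with RPMI over both dyes, but lay slightly below it within each dye. The ratio was 0.27 ± 0.11 in EBSS and -0.34 ± 0.11 with the inhibitor, both far from the size required. Egln1 (PHD2), the main oxygen sensor among the hydroxylases, was dim, at 9.09 and 8.91 in EBSS, 9.46 and 9.24 in EBSS with SB202190, and 9.44 and 9.41 in RPMI. Its ratio in EBSS was -0.39 ± 0.10, or -1.07 with the negative control background and -1.22 with the scanner software. The inhibitor gave 0.30, 0.85 and 1.08 relative to EBSS in the same order. Egln2 (PHD1) lay at 0.20 ± 0.10 in EBSS and -0.16 with the inhibitor.

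Jmjd1a (Kdm3a), a histone demethylase and HIF-1 target, was the single hypoxia-responsive member counted. It stood at 11.90 and 11.97 in EBSS, 10.86 and 11.02 in EBSS with SB202190, and 10.60 and 10.62 in RPMI. It rose in EBSS by 1.29 ± 0.10, or 2.45-fold. Under the inhibitor it lay at -0.97 ± 0.10 relative to EBSS, just short of the size required, and at 0.33 relative to RPMI. The 3 conditions were separate. The probe lies at chr6:71518768-71518827 (mm8). A second probe gave 0.37 in EBSS, or 1.16 with the negative control background, and the third was near the negative control level. The median of its probes, 0.39, would not have been counted.

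The other hypoxia-responsive genes stood above 0 in EBSS in smaller steps. Bnip3l (NIX), a mitophagy receptor, had 12.33 and 12.37 in EBSS, 12.16 and 11.92 in EBSS with SB202190, and 11.60 and 11.42 in RPMI. Its ratio in EBSS was 0.90 ± 0.12, with 0.70 from a second probe, and the RPMI channels lay below all others. Bnip3, its relative, was highest with the inhibitor, at 12.38 and 12.20 in EBSS with SB202190, 11.91 and 11.85 in EBSS, and 11.75 and 11.65 in RPMI, with a ratio of 0.62 ± 0.12 to RPMI. Vegfa, the vascular growth factor, was dim, at 9.33 and 9.31 in EBSS, 8.86 and 9.05 in EBSS with SB202190, and 8.89 and 8.74 in RPMI. Its ratio in EBSS was 0.41 ± 0.09, or 1.37 with the negative control background and 1.97 with the scanner software, and its other probes gave 0.10 and 0.09, or 0.59 and 0.58 with that background. P4ha1 and P4ha2, collagen prolyl hydroxylases, lay at 0.30 and 0.12, and Ankrd37, an ankyrin-repeat gene, at 0.09, or 0.13 with the negative control background.

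As a group, the 7 measured hypoxia-responsive genes all lay above the median of all genes in EBSS against RPMI, with a median log2 ratio of 0.30, and so they did with the scanner software and with the negative control background, while 5 of 7 did when arrays were only centred, where Ankrd37 and Vegfa lay below it. In EBSS with SB202190 against RPMI 7 of 7 lay above it with a median of 0.33, or 6 of 7 with the scanner software, 6 of 7 with the negative control background and 5 of 7 when arrays were only centred. Between the 2 EBSS media, 2 of 7 lay above it after loess and 3 of 7 under each of these alternatives. The comparisons share samples, so these counts are not independent of each other.

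**Figure D4:**
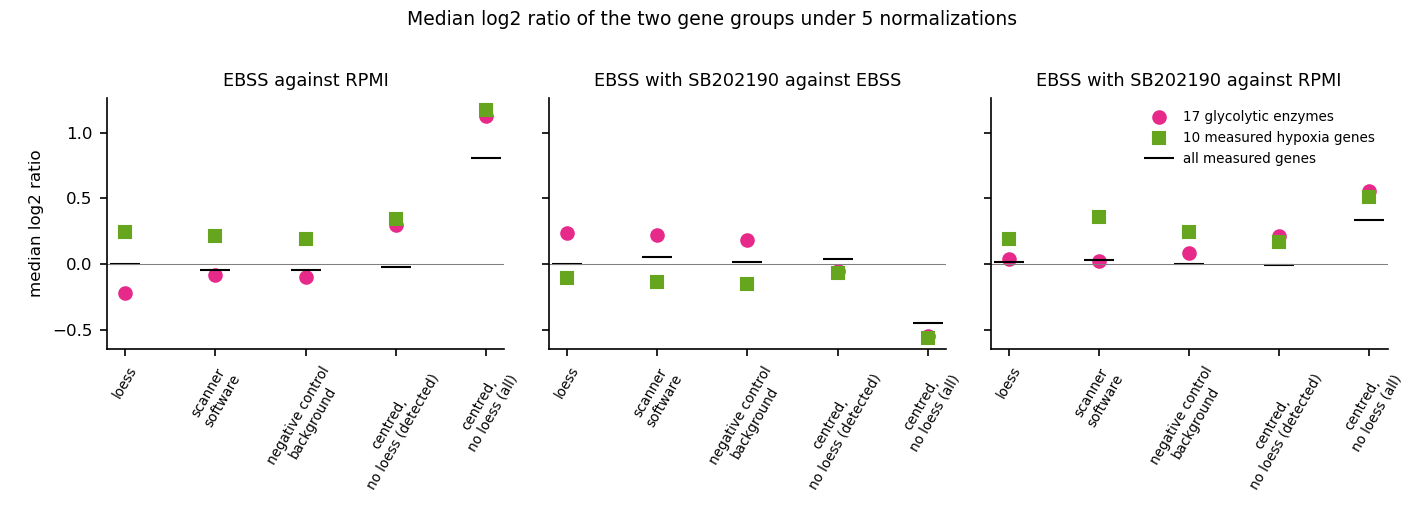
Median log2 ratio (vertical axis) of the 17 glycolytic enzymes (circles), the 10 measured hypoxia regulators and responsive genes (squares) and all measured genes (lines) under 5 normalizations. In EBSS against RPMI the enzymes lie 0.46 below the hypoxia genes after loess, 0.30 below with the scanner software and 0.05 below when arrays are only centred.

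Set against each other, the 17 glycolytic enzymes had a median log2 ratio of -0.22 and the 10 measured hypoxia regulators and responsive genes one of 0.24 in EBSS against RPMI, where all genes had 0.00. Between the 2 EBSS media the medians were 0.24 and -0.10, where all genes had -0.00, and in EBSS with SB202190 against RPMI 0.04 and 0.19, where all genes had 0.01. The gap of the enzymes to the hypoxia genes in EBSS was thus -0.46 after loess, -0.30 with the scanner software and -0.29 with the negative control background, but -0.05 when arrays were only centred. For the inhibitor in EBSS the gap was 0.34, 0.36, 0.33 and 0.02 in the same order. Relative to all genes, the median of the enzymes changed sign: in EBSS it was -0.22 after loess and 0.32 with centring, and with the inhibitor 0.24 after loess and -0.09 with centring. That of the hypoxia genes was 0.24 and 0.37 in EBSS, and -0.10 and -0.11 with the inhibitor. The enzymes included 1 gene that rose in EBSS and 1 that fell, so their median does not describe them all.

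Other genes of the 2 pathways were read from lists drawn up with earlier results of the same arrays known. The first list also holds carriers of related families, Slc16a10 among them. Of 29 further measured genes of glycolysis, pyruvate and the pentose phosphate branch, 1 was higher and 1 lower in EBSS, which is near the share among all genes, and their median log2 ratio was -0.01. Slc16a10, a carrier of aromatic amino acids, rose by 1.17 ± 0.12 in EBSS and fell by 1.24 ± 0.12 with the inhibitor in EBSS, where no other gene of this list was counted. Pgd, phosphogluconate dehydrogenase, fell by 1.06 ± 0.15 in EBSS. G6pdx, the first enzyme of the pentose phosphate branch, fell by 1.14 ± 0.15 in EBSS with SB202190 against RPMI, the single gene of the list counted there. Slc16a10 was not counted with the median of its probes (0.57 and -0.57). Pgd was not counted on the shared array alone (-0.95), with arrays centred on well measured probes (-0.60) or on all probes (0.24, with the median of all genes at 0.81). G6pdx was not counted under those 2 ways of centring (-0.96 and -0.61), with arrays scaled to each other (-0.83) or through the other 2 arrays alone (-0.76).

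Of 36 further measured genes of the HIF pathway, 8 were higher and 1 lower in EBSS, where 4.49% and 2.83% of all genes were. These were Ndrg1, a stress gene (4.79), Rora, a nuclear receptor (2.04), Txnip, an inhibitor of glucose uptake (1.95), Siah2, a ubiquitin ligase that targets prolyl hydroxylases (1.77), Ddit4, an inhibitor of mTORC1 (1.76), Bhlhb2, a transcription factor (1.30), Ero1l, an oxidase of protein folding (1.26), and Vhlh, which recognises hydroxylated HIF-1 alpha (1.11). Angptl4, an inhibitor of lipoprotein lipase, fell by 2.23. Several of them, Ndrg1, Ddit4 and Txnip among them, are also known to respond to stresses other than hypoxia. When the inhibitor was added to EBSS, 4 of 34 were lower, Ndrg1 (-2.87), Hmox1, which encodes heme oxygenase (-1.68), Ddit4 (-1.22) and Bhlhb2 (-1.03), and Angptl4 rose by 1.97. Of all genes 2.93% were lower and 0.896% higher there. In EBSS with SB202190 against RPMI 5 of 35 were higher, Txnip (1.97), Ndrg1 (1.92), Siah2 (1.63), Rora (1.06) and Vhlh (1.03), and Hmox1 fell by 1.49. Of all genes 1.46% were higher and 2.42% lower there. The median of this list was 0.17 in EBSS, -0.10 for the inhibitor in EBSS and 0.04 in EBSS with SB202190 against RPMI. In EBSS 10 of 36 were higher with the scanner software, 9 with the negative control background, 8 when arrays were centred on well measured probes and 15 when centred on all probes. Of all genes 8.15%, 6.82%, 7.03% and 35.8% were higher in the same order, so the last count is near the share among all genes. For the inhibitor in EBSS the number lower was 8 with the scanner software and 6 under each of the other 3. Of all genes 6.63%, 5.83%, 4.59% and 6.61% were lower there, in the same order of settings. Rora was not counted in EBSS with SB202190 against RPMI with the median of its probes (0.97), with arrays centred on well measured probes (0.90) or scaled to each other (0.67), or through the other 2 arrays alone (0.93). Vhlh was not counted there with scaling (0.78) or through the other 2 arrays (0.96), nor Bhlhb2 through the other 2 arrays with the inhibitor in EBSS (-0.99). With arrays centred on all probes, Angptl4 in EBSS (-1.26), and Vhlh (1.36) and Hmox1 (-1.03) in EBSS with SB202190 against RPMI, were not counted either. These lists were drawn up with earlier results of the same arrays known, Ndrg1 included, so their counts are no independent evidence of a hypoxia response.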

How the data were processed

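RNA from 3 media was compared on 3 two-colour Agilent arrays of 1 slide, and the submitters' processing notes name Agilent Feature Extraction 9.5.3.1 as the software that read the spots. Per the labels, the Cy5 and Cy3 channels held RPMI and EBSS on array 1, EBSS and EBSS with SB202190 on array 2, and EBSS with SB202190 and RPMI on array 3. The labels do not say whether 1 extract served both channels of a condition. The deposited files hold, per the file headers, the mean intensity of every spot and a median local background intensity, not normalized, and processed intensities that the software had background-subtracted and dye-normalized. The deposited log10 ratio is Cy5 over Cy3 of those processed intensities, per the file headers. Per the file headers, other deposited columns mark spots that are well above background, outliers or controls. The authors' series table of log2 ratios equals log2 of Cy5 over Cy3 of the processed intensities, not centred, with medians of -0.0855, -0.0766 and -0.166, which settles its scale, centring and direction. Probe positions are on build mm8, per the file headers.

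Mean intensities were corrected with normexp (offset 50) and normalized by loess within arrays in limma 3.58.1 (R 4.3.3), and channel levels were scaled between arrays by quantiles of the mean intensity (Aquantile). Control spots (1639 of 45018 per array) and 136 to 178 outlier spots per array were left out, and no spot was saturated. Between 40.1% and 49.9% of spots were well above background in a channel. Ratios were fitted by least squares to all 3 arrays of the loop, and the standard error came from its sum in 30 bins of intensity. The number of arrays limits this precision. A gene was represented by its brightest probe, and was measured if that was well above background in both channels of at least 1 compared condition. These steps used pandas 2.3.3 and numpy 2.4.6 in Python 3.11.15, and the estimates were tested on simulated data. All 41 members and the counted genes of both further lists are named. Members and lists were chosen with earlier results of these data known. The alternatives were another offset, other normalizations, filters, probes, paths and fold sizes; the negative control background was added after seeing the data. The exons that the probes fall in were not analysed here.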

Additional observations from a re-analysis of the deposited data

How the results depend on the processing

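No paired analysis was possible because each condition is 1 sample. With the scanner software's ratios, and identically with the authors' series table, 4 members were higher in EBSS against RPMI (Hk2, Eno2, Vegfa and Jmjd1a) and the enzyme median was -0.083. In EBSS with the inhibitor 2 were then higher (Pfkfb4 and Egln1) and 4 lower (Hk3, Eno2, Vegfa and Jmjd1a), and in EBSS with SB202190 against RPMI 2 were lower (Pfkfb1 and Slc16a6) and the hypoxia median was 0.36. With the negative control background, chosen after seeing the data, 4 were higher in EBSS with an enzyme median of -0.095, and 4 lower with the inhibitor in EBSS. Centring on all probes put the median of all genes at 0.81, -0.45 and 0.33 in the comparisons of EBSS with RPMI, of the inhibitor in EBSS, and of EBSS with SB202190 with RPMI. It gave in EBSS 16 of 39 members higher and 1 lower, near the 35.8% of all genes that were higher, with enzymes at 1.13 and hypoxia genes at 1.18. Hk1 lay at 0.22, a changed sign, but still below the median of all genes. With the inhibitor in EBSS it gave 3 lower, enzymes at -0.54 and hypoxia genes at -0.56, and against RPMI enzymes at 0.56 and hypoxia genes at 0.51. Centring on well measured probes put the enzymes at 0.29 in EBSS, -0.053 with the inhibitor in EBSS (2 lower) and 0.21 against RPMI. Scaling between arrays gave 2 lower with the inhibitor in EBSS. The median of all probes of a gene left 1 higher in EBSS (Hk2) and 0 higher in EBSS with SB202190 against RPMI. The shared array alone gave an enzyme median of -0.084 in EBSS and 0 lower with the inhibitor in EBSS. The other 2 arrays alone gave in EBSS enzymes at 0.037 and hypoxia genes at 0.37, with the inhibitor in EBSS 2 higher (Aldoa and Ldha) and 2 lower (Hk3 and Jmjd1a), and against RPMI 2 higher and 2 lower. At a log2 ratio of 0.58, 5 were higher in EBSS, 5 higher and 4 lower with the inhibitor in EBSS, and 5 higher and 3 lower against RPMI. The cause of these differences was not tested, and for the dim genes values with another background are only given beside the first.

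Counts over all genes moved by over 1.5 times as follows, where loess gave 534 higher and 337 lower in EBSS, 105 and 343 with the inhibitor in EBSS, and 173 and 288 against RPMI. The scanner software gave 970 and 1096, 783 and 777, and 474 and 778. The negative control background gave 812 and 851, 454 and 683, and 333 and 608. Centring on all probes gave 4261 and 23, and 151 and 90, and with the inhibitor in EBSS 19 higher and 6.61% of genes lower. Centring on well measured probes gave 836 higher in EBSS and 538 lower with the inhibitor. Scaling between arrays gave 260 and 622 with the inhibitor and 83 and 158 against RPMI, and the other 2 arrays alone gave 203 higher with the inhibitor. The median of all probes gave 347 higher in EBSS, and 66 and 211 with the inhibitor. At 0.58 there were 1300 and 1085, 615 and 1057, and 653 and 892. Over the ratios of single members under all alternatives but the lower fold size, 836 of 1353 values stayed within the gene's technical error of the loess value. Beyond that error 121 changed sign, of them 47 with centring on all probes, 29 with centring on well measured probes and 25 through the other 2 arrays alone; Hk1 was the one counted value among them. The 836 are no measure of stability, because some of the 1353 values could not move. Dropping the filter on dim probes changes no ratio, and the median of all probes changes none for a gene with 1 probe. The authors' series table nearly repeated the scanner software's ratios, and the unmeasured Adm and Egln3 were included. With 1 sample per condition the spread between cultures is unknown, and signal near the negative control level limits what dim probes show.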
